A study of Mus musculus with 18 samples.

Results

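The 8 genes described here are the Pea3 ETS factors Etv1, Etv4 and Etv5, the zinc finger factors Egr1, Egr2 and Egr3, and the early response genes Ier2 and Ier3. They were taken by name from 55335 gene identifiers, after the versioned Ensembl identifiers of the counts had been matched to mouse symbols. The RNA was collected from O9-1 cells, a multipotent neural crest (NC) line from mouse embryo heads, during culture in osteoblast differentiation medium. Bulk polyA RNA was sequenced in 18 libraries, with 3 replicates of each of 6 groups. The study asked how FGF2 and the Hippo pathway effectors Yap and Taz act together on NC-derived osteoblast differentiation.

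At d2.5 and again at d5, Ctrl+vehicle was cells transfected with scramble siRNA and given no FGF2, Ctrl+FGF2 was the same transfection with FGF2, and Y/T dKD+FGF2 was cells transfected with siRNA pools against Yap and Taz and given FGF2. All groups carry the same wild-type genotype, all were transfected with siRNA and all were in the same medium. No group combines the knockdown with vehicle, so the knockdown was compared under FGF2 only. The labels name each day as a batch, and day and batch therefore cannot be told apart. O9-1 is a single line, and the labels do not say whether replicates were separate cultures, so the p-values measure the spread between libraries that may be technical.

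The Pea3 factors are ETS domain activators whose genes are switched on by FGF receptor signalling through Erk, and they are known as readouts of FGF activity in embryonic tissue. Capicua represses them until Erk removes it, and the Cop1 ubiquitin ligase marks their proteins for breakdown. The Egr genes are immediate early genes, induced within minutes of growth factor, serum or mechanical stimulation through Srf and its Erk-phosphorylated ternary complex factors, and they are held back by the corepressors Nab1 and Nab2. Egr2, also called Krox20, patterns the hindbrain and drives myelination, and Egr3 acts in muscle spindles and lymphocytes. Ier2 is a short nuclear protein and Ier3 a short stress and survival protein, and both are induced early after stimulation.

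The siRNA targets were read first. In Y/T dKD+FGF2, Yap1 held 51.5% of its Ctrl+FGF2 level on d2.5 and 46.0% on d5, and Wwtr1, which encodes Taz, held 60.8% and 57.5%, all 4 with adjusted p of at most 4.9e-11. Wwtr1 itself was higher with FGF2 than with vehicle at d2.5 (log2 difference 0.65, SE 0.04), so that its level in Y/T dKD+FGF2 was 95.6% of Ctrl+vehicle there. Counts on genes were between 10377151 and 14698525 per library (median 12330911). Neural crest and cranial mesenchyme genes such as Twist1, Prrx1 and Tfap2a were present in every group, while Sox10, a defining NC marker, had no count in any library and Ngfr stayed at or below a mean of 0.177 CPM, the count of a gene relative to the size of its library. Macrophage, endothelial and epithelial marker lists summed to between 0.201 and 5.61 CPM in each library, with Tyrobp and Cdh5 at 0 throughout.

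Upstream sequence is shown for the 4 genes that had a promoter entry in RefSeq (GRCm38.p6) and that could be printed, Egr2, Etv1, Etv5 and Ier3, because it lets a reader see which early response elements lie next to the starts of genes that moved in these libraries. Each run is the 5′ to 3′ sequence on the gene's strand of the 250 bases before an annotated start, or the part of it before the first exon base of GENCODE M21, and capitals mark a CArG box, the Srf binding motif. The Egr2 windows are chr10:67537316-67537565 and chr10:67537619-67537868 on the plus strand, the Etv1 window is chr12:38779832-38780081 on the plus strand, the Etv5 window is chr16:22438369-22438618 on the minus strand and the Ier3 stretch is chr17:35821463-35821683 on the plus strand.
Egr2 upstream start: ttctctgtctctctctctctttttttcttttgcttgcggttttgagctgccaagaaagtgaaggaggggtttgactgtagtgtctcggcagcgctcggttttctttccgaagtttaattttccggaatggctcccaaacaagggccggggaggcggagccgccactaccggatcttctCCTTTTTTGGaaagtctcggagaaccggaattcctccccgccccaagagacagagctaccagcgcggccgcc
Egr2 downstream start: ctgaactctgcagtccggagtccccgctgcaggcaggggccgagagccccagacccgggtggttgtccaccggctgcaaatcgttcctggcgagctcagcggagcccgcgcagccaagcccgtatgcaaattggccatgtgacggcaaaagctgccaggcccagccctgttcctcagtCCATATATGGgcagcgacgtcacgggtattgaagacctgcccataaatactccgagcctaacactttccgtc
Etv1: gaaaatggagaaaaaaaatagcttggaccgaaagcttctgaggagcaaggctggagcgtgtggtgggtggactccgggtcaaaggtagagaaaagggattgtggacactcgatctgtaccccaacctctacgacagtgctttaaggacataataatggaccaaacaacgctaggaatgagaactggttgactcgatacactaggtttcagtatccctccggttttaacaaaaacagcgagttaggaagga
Etv5: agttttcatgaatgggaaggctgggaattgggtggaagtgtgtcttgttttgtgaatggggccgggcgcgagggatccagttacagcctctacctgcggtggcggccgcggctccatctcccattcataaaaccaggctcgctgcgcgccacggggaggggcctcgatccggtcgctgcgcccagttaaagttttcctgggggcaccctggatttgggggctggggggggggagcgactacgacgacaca
Ier3: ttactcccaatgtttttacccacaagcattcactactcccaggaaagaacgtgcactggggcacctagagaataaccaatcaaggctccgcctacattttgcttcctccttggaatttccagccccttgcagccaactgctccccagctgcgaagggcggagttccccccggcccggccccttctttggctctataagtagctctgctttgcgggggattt

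The windows of all 10 annotated starts of these 4 genes were searched on both strands for 6 motifs. A CArG box was found in 4 of the 5 Egr2 windows, and both printed ones begin at position -72 from the start. Of these 4 windows 3 overlap and hold the same element, so the matches are 2 separate elements. The remaining Egr2 window, chr10:67535249-67535498, is not printed and held no match. It lies upstream of both printed windows and spans the GENCODE M21 start of the gene. The printed Etv1 and Etv5 windows likewise lie within their genes, past the GENCODE M21 starts. An unprinted Etv5 window, chr16:22439571-22439820 on the minus strand, spans the GENCODE M21 start of Etv5. A CArG box is held by 1.47% of the 32851 promoter windows of the same length in the table. No other match was found in the 10 windows, for the cAMP response element TGACGTCA (1.55% of all windows), the Capicua octamer TGAATGAA or TGAATGGA (2.07%), the ETS site CCGGAAGT (2.88%), the Egr site GCGNGGGCG (4.70%) or the AP-1 site TGACTCA or TGAGTCA (4.46%). Only the spellings given here were searched. The printed Etv5 window holds TGAATGGG more than once, with matches on both strands. This spelling differs from the searched TGAATGGA in its last base and was not counted. The matches describe letters in a window and not binding.

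The genes lie on 8 chromosomes of GRCm38 (GENCODE M21) and none overlaps another annotated gene. Etv1 (ENSMUSG00000004151.17) is at chr12:38779380-38870484 on the plus strand, Etv4 (ENSMUSG00000017724.14) at chr11:101769742-101785371 on the minus strand and Etv5 (ENSMUSG00000013089.15) at chr16:22381309-22439719 on the minus strand. Egr1 (ENSMUSG00000038418.7) is at chr18:34859823-34864984, Egr2 (ENSMUSG00000037868.15) at chr10:67535475-67542188 and Egr3 (ENSMUSG00000033730.4) at chr14:70077203-70082614, all on the plus strand. Ier2 (ENSMUSG00000053560.5) is at chr8:84661331-84662852 on the minus strand and Ier3 (ENSMUSG00000003541.6) at chr17:35821684-35822923 on the plus strand. Levels below are CPM after scaling of each library by trimmed mean of M values (TMM), with the SD over 3 libraries.

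**Figure D1:**
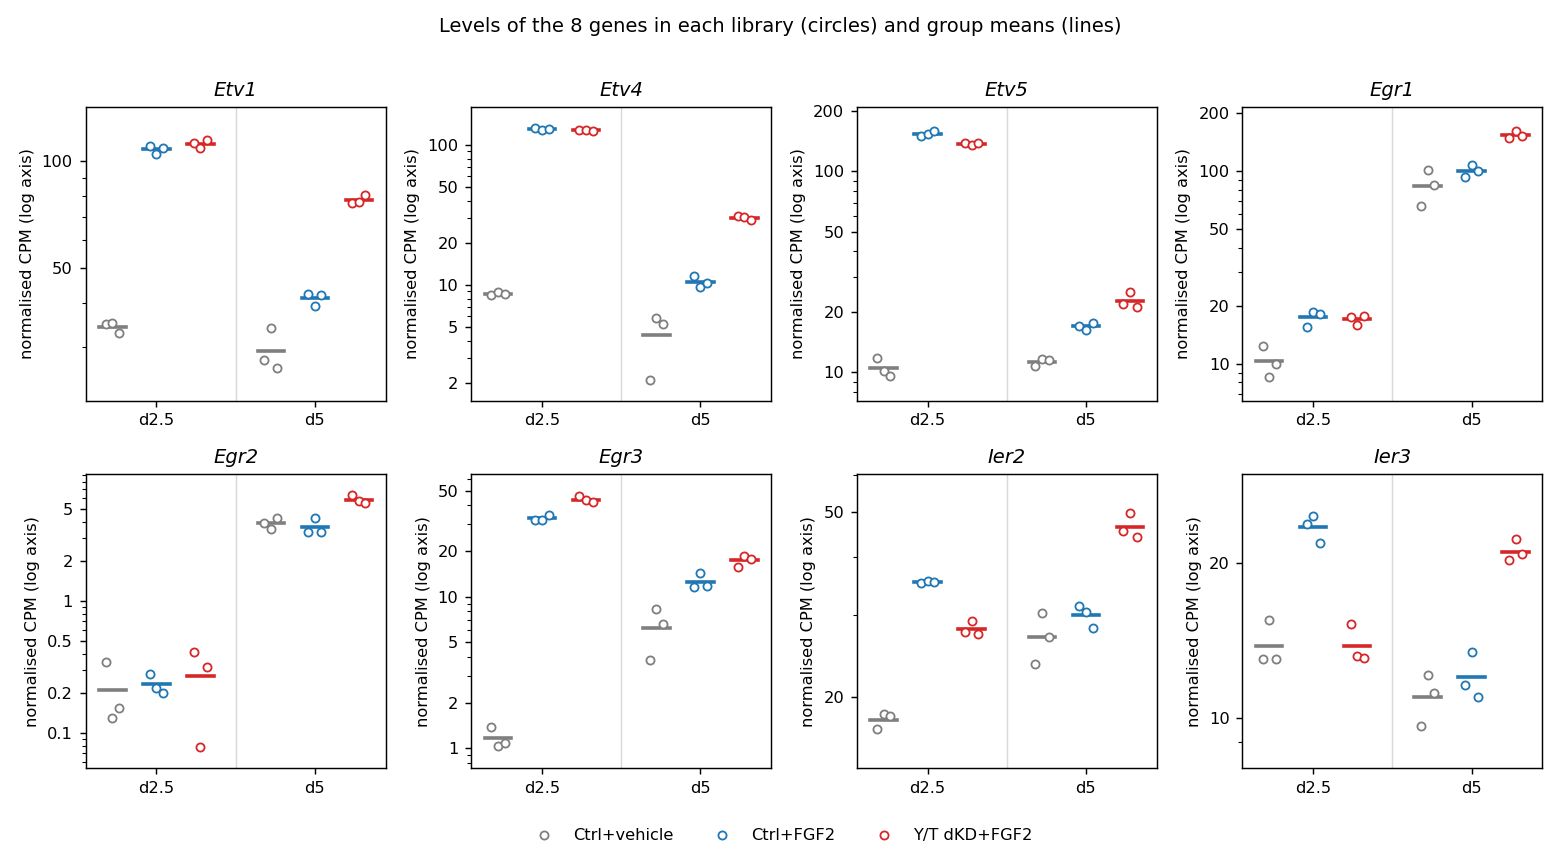
Level of each of the 8 genes in every library, as normalised CPM on a log axis that differs between panels, with 3 circles per group and a line at the group mean, d2.5 on the left and d5 on the right of each panel. Etv4 and Etv5 are at 126.4 CPM or more in every FGF2 library of d2.5 and at 31.1 CPM or less in every library of d5, while Egr1 and Egr2 are higher at d5 in all 3 groups.

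FGF2 raised the Pea3 factors and Egr3 most at d2.5. Of the 8 genes, 7 could be tested, and all 7 were higher in Ctrl+FGF2 than in Ctrl+vehicle, against 33.5% of the 13677 genes tested that were higher. None of the 7 had overlapping libraries, and of all genes tested 35.9% were higher with no overlap. The median log2 difference over all genes tested was 0.00.

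Etv4 was at 8.42, 8.84 and 8.66 CPM in the Ctrl+vehicle libraries of d2.5 and at 132.6, 127.4 and 130.8 CPM in the Ctrl+FGF2 libraries. It rose 14.9-fold (log2 difference 3.90, SE 0.06, adjusted p = 2.6e-31). Etv5 was at 11.8, 10.2 and 9.58 CPM with vehicle and at 150.4, 154.3 and 158.6 CPM with FGF2. It rose 14.5-fold (log2 difference 3.86, SE 0.06, adjusted p = 4.1e-31). Etv1 started from a higher level, with 34.9, 35.1 and 32.9 CPM in vehicle and 110.6, 105.2 and 109.4 CPM with FGF2. Its rise was 3.13-fold (log2 difference 1.65, SE 0.05, adjusted p = 9.0e-24), so the 3 Pea3 genes had means of 108.4 to 154.4 CPM with FGF2 from 8.64 to 34.3 CPM without it.

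Among the Egr genes the d2.5 response was uneven. Egr3 was near the lower end of detection in Ctrl+vehicle, with 1.38, 1.03 and 1.08 CPM from 14 to 20 counts per library, and reached 32.0, 32.0 and 34.6 CPM with FGF2. This was the largest rise of the 7 genes, 27.8-fold (log2 difference 4.80, SE 0.12, adjusted p = 5.7e-25). Egr1 was at 12.4, 8.58 and 9.97 CPM with vehicle and at 15.6, 18.6 and 18.2 CPM with FGF2. It rose 1.68-fold (log2 difference 0.75, SE 0.11, adjusted p = 2.3e-07). Egr2 had 1 to 5 counts in each of the 9 libraries of d2.5 and did not pass the filter on low counts, so no fold is given there.

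Both Ier genes rose moderately. Ier2 was at 17.1, 18.4 and 18.2 CPM in Ctrl+vehicle and at 35.2, 35.5 and 35.4 CPM in Ctrl+FGF2, a rise of 1.96-fold (log2 difference 0.97, SE 0.07, adjusted p = 2.9e-14). Ier3 was at 13.0, 15.5 and 13.0 CPM and then at 23.7, 24.6 and 21.8 CPM, a rise of 1.67-fold (log2 difference 0.74, SE 0.09, adjusted p = 6.2e-09). Osteoblast markers moved the other way on this day, with 6 of 7 tested lower and 1 higher with FGF2. Over all 13677 genes tested, 4668 were lower and 4575 higher. The summed level of the markers was 34721 to 35171 CPM in Ctrl+vehicle, 14954 to 15253 CPM in Ctrl+FGF2 and 16749 to 17076 CPM in Y/T dKD+FGF2. Most of this sum was Col1a1, Col1a2 and Spp1. Spp1 had means of 4001, 6915 and 8766 CPM in the same order. Col1a1 had 12636, 2203 and 2009 CPM and Col1a2 17595, 5830 and 5900 CPM. On knockdown 3 of the 7 markers were higher and 1 lower. The part of the markers in the differences of the 8 genes was not tested. In bulk RNA, more cells that express a gene and more RNA of it per cell cannot be told apart.

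Knockdown of Yap and Taz under FGF2 left the large d2.5 levels of the Pea3 factors nearly in place. Of the 7 genes tested, 1 was higher, 3 were lower and 3 did not pass the test, against 24.5% of the 13677 genes tested that passed in either direction. The groups did not overlap for the 4 that passed, and over all genes tested 39.4% had no overlap in either direction. The comparison shares its Ctrl+FGF2 libraries with the FGF2 comparison.

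Etv1 was at 112.4, 109.0 and 115.1 CPM in Y/T dKD+FGF2, and its log2 difference from Ctrl+FGF2 was 0.04 with a 95% interval from -0.04 to 0.12 (adjusted p = 0.52). Etv4 was at 128.3, 127.5 and 126.4 CPM, with a log2 difference of -0.04 and an interval from -0.12 to 0.03 (adjusted p = 0.46). As folds, the intervals ran from 0.971 to 1.09 for Etv1 and from 0.922 to 1.02 for Etv4. Etv5 was at 137.8, 134.8 and 138.9 CPM, all below the lowest Ctrl+FGF2 library at 150.4 CPM, and was 1.13-fold lower (log2 difference -0.18, SE 0.04, adjusted p = 9.0e-04).

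Egr3 was the gene that rose on knockdown at d2.5, to 46.3, 43.2 and 42.0 CPM from at most 34.6 CPM in Ctrl+FGF2 (1.32-fold, log2 difference 0.40, SE 0.06, adjusted p = 1.0e-05). Egr1 was at 17.4, 15.9 and 17.6 CPM, within the range of Ctrl+FGF2, with a log2 difference of -0.05 and an interval from -0.25 to 0.15 (adjusted p = 0.74).

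The Ier genes fell. Ier3 was at 15.2, 13.2 and 13.1 CPM, 1.70-fold below Ctrl+FGF2 (log2 difference -0.77, SE 0.09, adjusted p = 1.6e-07). Its libraries lay in the range of Ctrl+vehicle, from which it differed by -0.03 on the log2 scale with an interval from -0.22 to 0.17 (adjusted p = 0.82). Ier2 was at 27.6, 29.1 and 27.4 CPM, 1.27-fold below Ctrl+FGF2 (log2 difference -0.34, SE 0.06, adjusted p = 1.1e-04), and still above every Ctrl+vehicle library. It was 1.54-fold above Ctrl+vehicle (log2 difference 0.63, SE 0.07, adjusted p = 2.3e-09).

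Set against Ctrl+vehicle, Y/T dKD+FGF2 at d2.5 had 6 of the 7 genes higher and 1, Ier3, not called, against 34.1% of all genes tested that were higher. The log2 differences were 1.69 for Etv1, 3.86 for Etv4, 3.68 for Etv5, 0.70 for Egr1 and 5.20 for Egr3, each with an SE of at most 0.12. Egr3 was thus 36.8-fold above vehicle in these libraries. This comparison shares the Ctrl+vehicle libraries with the FGF2 comparison and joins the effects of FGF2 and the knockdown.

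**Figure D2:**
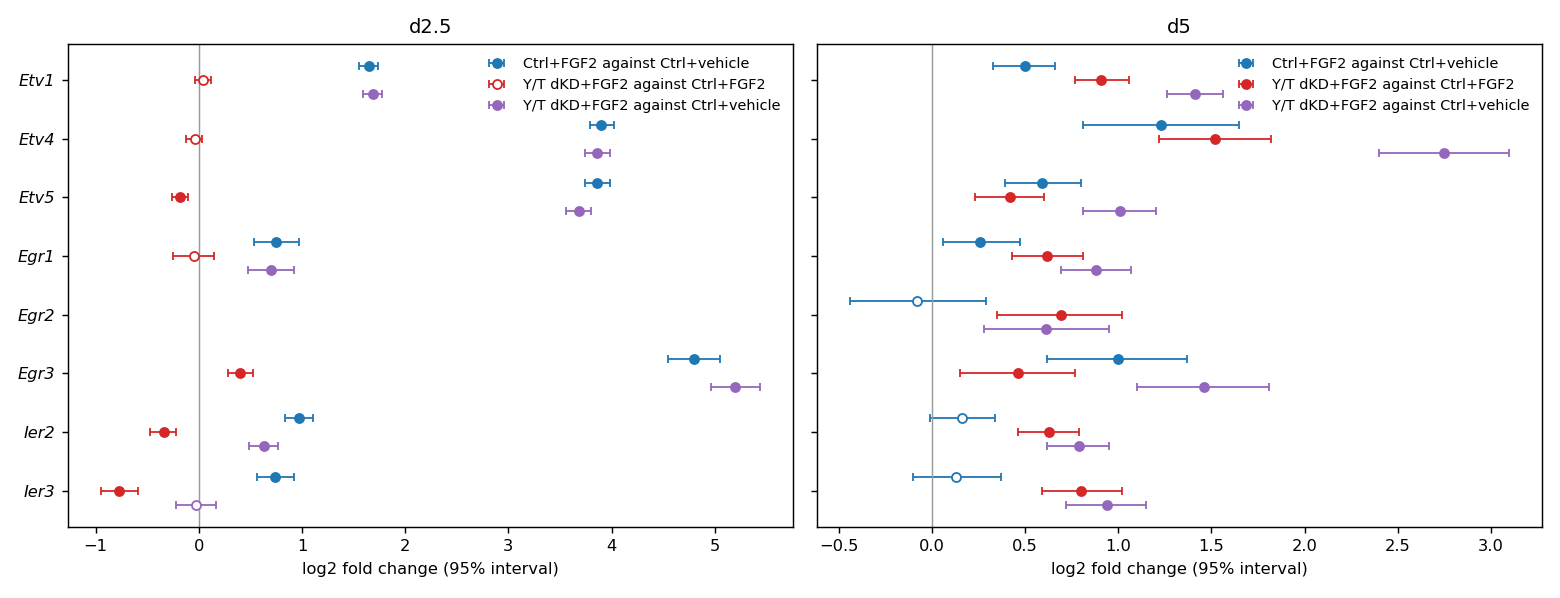
Log2 fold change of the 8 genes with its 95% interval in the 3 comparisons of d2.5 (left) and of d5 (right), where filled circles passed an adjusted p of 0.05 and the scale differs between the sides. At d2.5 the FGF2 changes of Etv4, Etv5 and Egr3 lie between 3.86 and 4.80 and the knockdown changes between -0.77 and 0.40, and at d5 every knockdown change lies above 0. Egr2 is missing at d2.5, where it was not tested.

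At d5 the FGF2 response of the same genes was small. All 8 could be tested, and 5 were higher in Ctrl+FGF2 than in Ctrl+vehicle and 3 did not pass, against 23.5% of the 13304 genes tested that were higher. The groups did not overlap for 4 genes, Etv1, Etv4, Etv5 and Egr3, where 26.7% of all genes tested were higher with FGF2 and did not overlap.

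Etv4 was at 2.11, 5.83 and 5.30 CPM in Ctrl+vehicle and at 11.5, 9.69 and 10.4 CPM in Ctrl+FGF2, a rise of 2.34-fold (log2 difference 1.23, SE 0.20, adjusted p = 5.9e-05). The lowest vehicle library, replicate 1, held 21 counts. Leaving out 1 library gave log2 differences of 0.93 to 1.48 for Etv4, with the call kept in all 9 fits. Etv5 was at 10.8, 11.7 and 11.5 CPM and rose to 17.1, 16.3 and 17.6 CPM, or 1.51-fold (log2 difference 0.59, SE 0.10, adjusted p = 6.5e-05). Etv1 was at 27.6, 34.0 and 26.3 CPM and rose to 42.4, 39.1 and 42.0 CPM, or 1.41-fold (log2 difference 0.50, SE 0.08, adjusted p = 4.9e-05). All 3 Pea3 genes were above every vehicle library with FGF2, at levels far below those of d2.5.

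Egr3 was at 3.82, 8.25 and 6.64 CPM in Ctrl+vehicle and at 11.6, 14.3 and 11.7 CPM in Ctrl+FGF2, a rise of 2.0-fold (log2 difference 1.00, SE 0.18, adjusted p = 1.6e-04). Leaving out 1 library gave log2 differences of 0.76 to 1.25 for Egr3, with the call kept in all 9 fits. Egr1 was at 65.9, 101.0 and 84.5 CPM and at 93.2, 107.0 and 100.3 CPM, so the groups overlapped. It passed the test narrowly (log2 difference 0.26, SE 0.10, adjusted p = 0.031), and the call depended on single libraries. Without Ctrl+vehicle replicate 1 the log2 difference was 0.12 (adjusted p = 0.15), and without Ctrl+vehicle replicate 2 it was 0.42 (adjusted p = 1.5e-04). Leaving out Ctrl+vehicle replicate 3 or Ctrl+FGF2 replicate 2 or 3, DESeq2, and a fit of the 2 groups alone also ended the call.

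Egr2 was at 3.92, 3.50 and 4.22 CPM with vehicle and at 3.31, 4.23 and 3.32 CPM with FGF2, a log2 difference of -0.08 with an interval from -0.44 to 0.29 (adjusted p = 0.76). Ier2, at 23.6, 30.3 and 26.9 CPM and at 31.4, 30.5 and 28.2 CPM, differed by 0.16 with an interval from -0.01 to 0.34 (adjusted p = 0.12). Without Ctrl+vehicle replicate 2 its difference was 0.25 and passed the test (adjusted p = 0.020). Ier3 was at 9.65, 12.1 and 11.2 CPM and at 11.6, 13.4 and 11.0 CPM, a log2 difference of 0.13 with an interval from -0.10 to 0.37 (adjusted p = 0.35).

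Knockdown under FGF2 at d5 raised all 8 genes, against 15.6% of the 13304 genes tested that were higher. None of the Y/T dKD+FGF2 libraries overlapped Ctrl+FGF2 for any of them, and the share of all genes tested that were higher without overlap was 23.4%. Fold changes were between 1.33 and 2.87.

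Etv4 rose most, from at most 11.5 CPM in Ctrl+FGF2 to 31.1, 30.6 and 29.1 CPM (2.87-fold, log2 difference 1.52, SE 0.14, adjusted p = 2.3e-07). Etv1 rose to 76.2, 76.9 and 80.7 CPM (1.89-fold, log2 difference 0.91, SE 0.07, adjusted p = 1.5e-08). Etv5 rose to 21.9, 25.0 and 21.1 CPM (1.33-fold, log2 difference 0.42, SE 0.09, adjusted p = 0.0011). The log2 differences of the 3 Pea3 genes in this contrast were therefore spread from 0.42 to 1.52.

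Egr1 reached 148.6, 161.7 and 152.7 CPM, above the highest Ctrl+FGF2 library at 107.0 CPM (1.53-fold, log2 difference 0.62, SE 0.09, adjusted p = 4.3e-05). Egr2 reached 6.38, 5.73 and 5.50 CPM from 54 to 75 counts per library (1.61-fold, log2 difference 0.69, SE 0.16, adjusted p = 0.0029). Egr3 reached 15.8, 18.5 and 17.8 CPM (1.38-fold, log2 difference 0.46, SE 0.15, adjusted p = 0.024). Its call was the least firm of the 8, since it was lost without Ctrl+FGF2 replicate 1 (adjusted p = 0.063) or 3 (adjusted p = 0.097) and without Y/T dKD+FGF2 replicate 2 (adjusted p = 0.11) or 3 (adjusted p = 0.073), with log2 differences of 0.41 to 0.45.

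Ier3 rose to 20.2, 22.2 and 20.8 CPM (1.75-fold, log2 difference 0.80, SE 0.10, adjusted p = 7.0e-06) and Ier2 to 45.6, 49.7 and 44.1 CPM (1.54-fold, log2 difference 0.63, SE 0.08, adjusted p = 5.6e-06). Both had fallen on knockdown at d2.5. All 8 osteoblast markers tested were also higher in Y/T dKD+FGF2 than in Ctrl+FGF2 at d5. Their summed level was 51587 to 54274 CPM, against 38921 to 42971 CPM in Ctrl+FGF2 and 70353 to 73164 CPM in Ctrl+vehicle. Most of this sum was Col1a1 and Col1a2. Against Ctrl+vehicle, 3 of the 8 markers were higher and 5 lower in Ctrl+FGF2, and 4 higher and 3 lower in Y/T dKD+FGF2. Over all 13304 genes tested, 3125 were higher and 3153 lower, and 2751 higher and 2813 lower, in that order. Runx2, Sp7 and Spp1 had higher means in both FGF2 groups than in Ctrl+vehicle. The markers' part in the differences of the 8 genes was not tested.

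Against Ctrl+vehicle at d5, Y/T dKD+FGF2 had all 8 genes higher, against 20.7% of the genes tested that were higher. The libraries did not overlap for any of the 8, and 25.3% of all genes tested were higher with no overlap in this comparison. The log2 differences were 2.75 for Etv4, 1.46 for Egr3, 1.41 for Etv1, 1.01 for Etv5, 0.94 for Ier3, 0.88 for Egr1, 0.79 for Ier2 and 0.61 for Egr2. For Egr2 the adjusted p of 0.0048 became 0.051 with DESeq2. The knockdown libraries are part of this comparison and of the knockdown comparison, so the counts are not independent.

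The FGF2 effect differed between the days for 7 of the 8 genes, tested as an interaction over all 18 libraries. All 7 were lower at d5, against 29.1% of the 14198 genes tested that were lower. The difference was -3.83 on the log2 scale for Egr3 (SE 0.26, adjusted p = 1.9e-13), -3.29 for Etv5 (SE 0.12, adjusted p = 8.1e-20), -2.70 for Etv4 (SE 0.21, adjusted p = 3.1e-12) and -1.18 for Etv1 (SE 0.09, adjusted p = 3.3e-12). Smaller differences were found for Ier2 at -0.84, Ier3 at -0.63 and Egr1 at -0.51, with adjusted p between 6.0e-08 and 0.013. The Egr1 difference was -0.39 and lost its call without d2.5 Ctrl+vehicle replicate 2 (adjusted p = 0.075). Egr2 differed by -0.23 with an interval from -1.52 to 1.05 (adjusted p = 0.78), which its 1 to 5 counts per library at d2.5 leave wide.

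The knockdown effect differed between the days for 6 of the 8 genes, and all 6 were more positive at d5, against 11.6% of the genes tested that were higher. Ier3 differed by 1.57 (SE 0.13, adjusted p = 1.1e-09), since it fell at d2.5 and rose at d5, and Ier2 turned in the same way with 0.97 (SE 0.10, adjusted p = 1.8e-08). Etv4 differed by 1.56 (SE 0.12, adjusted p = 2.1e-10), Etv1 by 0.87 (SE 0.08, adjusted p = 2.3e-09), Egr1 by 0.67 (SE 0.16, adjusted p = 0.0034) and Etv5 by 0.59 (SE 0.09, adjusted p = 1.3e-05). Egr3 differed by 0.05 with an interval from -0.25 to 0.36 (adjusted p = 0.86), having risen on both days. Egr2 differed by 0.51 with an interval from -0.79 to 1.81 (adjusted p = 0.66).

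**Figure D3:**
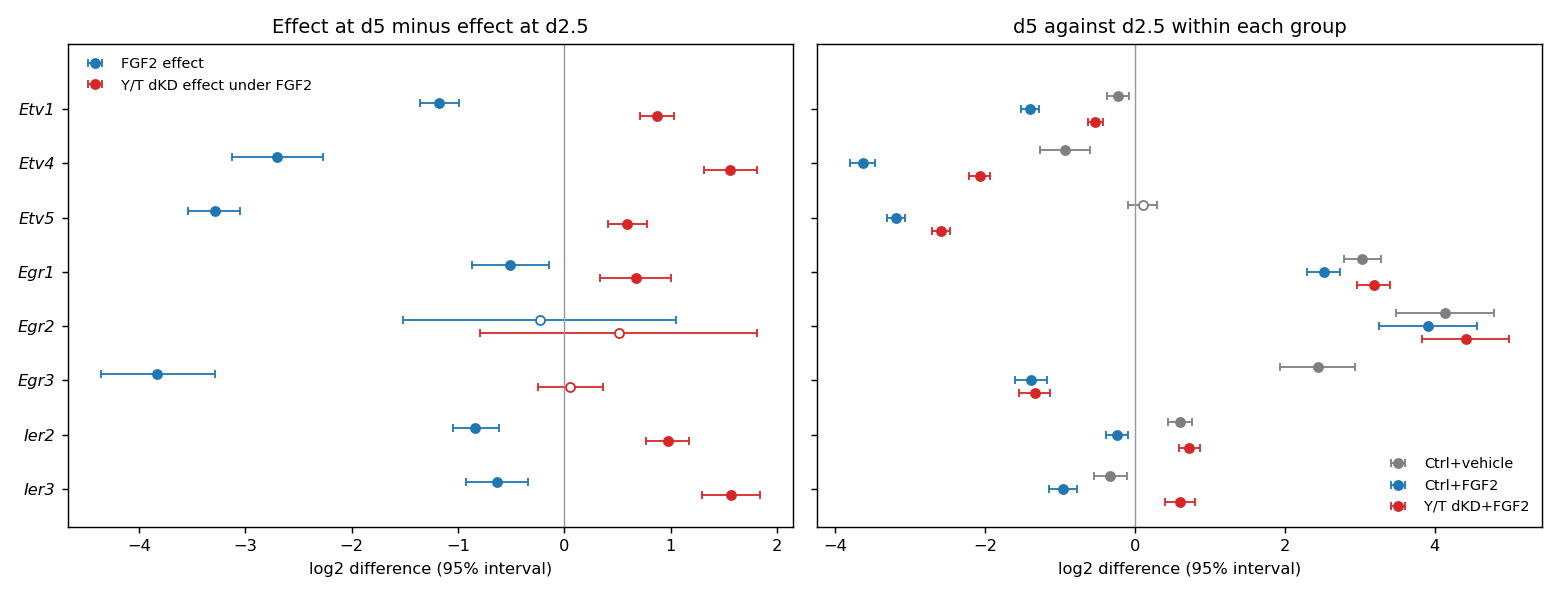
Log2 differences with 95% intervals for the 8 genes, where filled circles passed an adjusted p of 0.05. On the left, the FGF2 effect at d5 minus that at d2.5 is below 0 for 7 called genes and the knockdown effect is above 0 for 6, and on the right, Egr1 and Egr2 are higher at d5 in all 3 groups while Egr3 is higher in Ctrl+vehicle and lower in both FGF2 groups.

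The levels of the 2 days were then compared within each group. Between 66.4% and 80.0% of the 14198 genes tested passed in either direction, with 66.4% for Ctrl+vehicle, 80.0% for Ctrl+FGF2 and 78.4% for Y/T dKD+FGF2, so that passing this test is common, and the days are also batches. Of the 8 genes, 4 were higher at d5 and 3 lower in Ctrl+vehicle, 2 higher and 6 lower in Ctrl+FGF2, and 4 higher and 4 lower in Y/T dKD+FGF2.

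Egr1 and Egr2 were higher at d5 in every group. Egr1 was 8.18-fold higher for Ctrl+vehicle, 5.73-fold for Ctrl+FGF2 and 9.10-fold for Y/T dKD+FGF2 (log2 differences 3.03, 2.52 and 3.19, SE 0.11 to 0.12). Egr2 moved from group means of 0.210, 0.234 and 0.269 CPM at d2.5 to 3.88, 3.62 and 5.87 CPM at d5, with log2 differences of 4.14, 3.91 and 4.42 (SE 0.29 to 0.32). Its d2.5 groups held 9 to 10 counts each over 3 libraries, so these folds carry wide intervals, from 11.2-fold upward in Ctrl+vehicle and from 9.59-fold upward in Ctrl+FGF2.

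Egr3 did not follow the other Egr genes. It was 5.42-fold higher at d5 in Ctrl+vehicle (log2 difference 2.44, SE 0.24) and lower at d5 with FGF2, with log2 differences of -1.39 for Ctrl+FGF2 and -1.33 for Y/T dKD+FGF2 (SE 0.11 and 0.10). Its highest group was Y/T dKD+FGF2 at d2.5.

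The Pea3 genes were all lower at d5 in both FGF2 groups. In Ctrl+FGF2 Etv4 was 12.4-fold lower (log2 difference -3.63, SE 0.08), Etv5 9.09-fold lower (-3.18, SE 0.06) and Etv1 2.64-fold lower (-1.40, SE 0.06). In Y/T dKD+FGF2 they were 4.20-fold, 6.02-fold and 1.44-fold lower in the same order. In Ctrl+vehicle Etv4 was lower too (log2 difference -0.93, SE 0.16, adjusted p = 9.1e-06), while Etv5 differed by 0.11 with an interval from -0.09 to 0.30 (adjusted p = 0.35). Etv1 was lower in Ctrl+vehicle by a log2 difference of -0.22 (SE 0.07, adjusted p = 0.0066), which became -0.35 without d5 Ctrl+vehicle replicate 2 and -0.14 without replicate 3, where it was not called (adjusted p = 0.093).

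Ier2 was higher at d5 in Ctrl+vehicle (0.60, SE 0.08) and in Y/T dKD+FGF2 (0.73, SE 0.07) and lower in Ctrl+FGF2 (-0.24, SE 0.07), all on the log2 scale. Ier3 was lower at d5 in Ctrl+vehicle (-0.33, SE 0.11) and Ctrl+FGF2 (-0.96, SE 0.09) and higher in Y/T dKD+FGF2 (0.61, SE 0.10). The Ier3 call in Ctrl+vehicle was lost without d2.5 Ctrl+vehicle replicate 2 (adjusted p = 0.078) or d5 Ctrl+vehicle replicate 1 (adjusted p = 0.056).

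Ordered by mean level over the 6 groups, Etv1, Etv4 and Etv5 each had the FGF2 groups of d2.5 at the top, and neither Etv1 nor Etv4 separated Ctrl+FGF2 from Y/T dKD+FGF2 there. For Etv1 the order was Y/T dKD+FGF2 and Ctrl+FGF2 of d2.5 (112.1 and 108.4 CPM), Y/T dKD+FGF2 and Ctrl+FGF2 of d5 (77.9 and 41.2 CPM) and the vehicle groups of d2.5 and d5 (34.3 and 29.3 CPM), where the last pair overlapped. For Etv5 the d5 and d2.5 vehicle groups (11.3 and 10.5 CPM) were the only neighbours that overlapped. For Etv4 the order after these was Y/T dKD+FGF2 and Ctrl+FGF2 of d5 (30.3 and 10.5 CPM) and the vehicle groups of d2.5 and d5 (8.64 and 4.41 CPM), with no overlap among them. For Egr1 the highest group was d5 Y/T dKD+FGF2 at 154.3 CPM, followed by the overlapping pair of d5 Ctrl+FGF2 at 100.2 CPM and Ctrl+vehicle at 83.8 CPM. Egr3 was the gene whose 6 groups did not overlap at any step, from 43.8 CPM in d2.5 Y/T dKD+FGF2 to 1.17 CPM in d2.5 Ctrl+vehicle. For Egr2, d5 Y/T dKD+FGF2 stood alone above the overlapping pair of d5 Ctrl+vehicle and Ctrl+FGF2, and its 3 groups of d2.5 overlapped each other. For Ier2, d5 Y/T dKD+FGF2 at 46.5 CPM and d2.5 Ctrl+FGF2 at 35.4 CPM each stood apart, d5 Ctrl+FGF2, d2.5 Y/T dKD+FGF2 and d5 Ctrl+vehicle overlapped between 30.0 and 27.0 CPM, and d2.5 Ctrl+vehicle was lowest at 17.9 CPM. For Ier3, d2.5 Ctrl+FGF2 at 23.4 CPM and d5 Y/T dKD+FGF2 at 21.0 CPM overlapped at the top, and the other 4 groups, from 13.8 to 11.0 CPM, overlapped from each neighbour to the next.

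To compare the genes with each other, levels were divided by the merged exon length in kilobases. On this scale Ier3 and Ier2 led in d2.5 Ctrl+vehicle with 12.2 and 11.8 CPM per kb, and Etv4 and Etv5 led in d2.5 Ctrl+FGF2 with 42.0 and 37.6 CPM per kb. At d5 Egr1 led in all 3 groups, with 18.7 CPM per kb for Ctrl+vehicle, 22.3 for Ctrl+FGF2 and 34.4 for Y/T dKD+FGF2. Egr2 was last in every group, with at most 1.73 CPM per kb. Etv1, whose merged exons span 13.3 kb, stood lower per length than its CPM.

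Genes of the same pathway were counted on lists written by hand, beside the all-gene median of 0.00 to 0.03. Over all genes tested, 67.6% passed in either direction with FGF2 at d2.5 and 47.2% at d5. Under knockdown the shares were 24.5% at d2.5 and 31.7% at d5. Of the genes that passed, 49.5% and 49.8% were higher with FGF2 and 44.3% and 49.3% under knockdown, in the order of the days. The Erk feedback inhibitors, which are Sprouty, Spred and Dusp genes and their like, were mostly higher with FGF2. At d2.5 10 of 11 tested were higher and 1 lower (median log2 difference 1.52), and at d5 8 of 11 were higher (median 0.34). Dusp4, an Erk phosphatase, rose by 3.26 (SE 0.10) at d2.5, and Spry4, a Sprouty inhibitor of receptor signalling, by 3.16 (SE 0.08). At d5 Spry4 was higher by 0.33 (SE 0.11, adjusted p = 0.019), and Dusp4 differed by -0.26 (SE 0.20, adjusted p = 0.32). Il17rd, which encodes the inhibitor Sef, fell at d2.5 (log2 difference -0.49, SE 0.19). Under knockdown at d5 Dusp4 and Spry4 rose by 1.89 (SE 0.16) and 0.95 (SE 0.10), within 5 higher and 1 lower of 11 tested (median 0.26), while at d2.5 2 were higher and 3 lower (median -0.01).

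The FGF receptor to Erk cascade was split at d2.5, with 10 genes higher and 11 lower of 27 tested (median -0.02). The receptors Fgfr3 and Fgfr2 fell, with log2 differences of -4.93 (SE 0.14) and -3.33 (SE 0.05), while the receptor Fgfr1 rose by 0.69 (SE 0.04). At d5 10 were higher and 9 lower (median 0.05), and Fgfr1 was lower with FGF2 (log2 difference -0.26, SE 0.05). On that day Fgfr2 was higher with FGF2 (log2 difference 0.45, SE 0.04, adjusted p = 4.4e-08), while Fgfr3 did not pass the test (log2 difference -0.11, SE 0.13, adjusted p = 0.51). Under knockdown 4 were higher and 6 lower at d2.5 and 7 higher and 6 lower at d5, with medians of 0.01 and -0.01.

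The regulators of the Pea3 factors showed 2 higher and 4 lower of 7 at d2.5 (median -0.34). Cic, which encodes Capicua, and its partner Atxn1 fell (log2 differences -0.57 and -0.74, SE 0.04 and 0.06), while Det1 and Cop1, parts of the ubiquitin ligase, rose by 0.64 and 0.11 (SE 0.12 and 0.04). At d5 Cic and Atxn1 were higher with FGF2 (0.25 and 0.43, SE 0.04 and 0.06) and Cop1 lower (log2 difference -0.18, SE 0.04), within 2 higher and 2 lower (median 0.07). Under knockdown 2 of 7 were lower at d2.5 and 1 at d5 (medians -0.05 and 0.00).

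The corepressors of the Egr proteins, Nab2 and Nab1, were both higher with FGF2 at d2.5 (1.06 and 0.48, both SE 0.04), Egr4 not being tested. At d5 Nab2 was higher by 0.24 (SE 0.05) and Nab1 lower (log2 difference -0.32, SE 0.04), and both rose on knockdown (0.30 and 0.18, SE 0.04). Of Srf and its cofactors, Elk3 rose by 0.82 (SE 0.03) at d2.5 and 4 of 6 were lower, among them Mrtfb and Mrtfa (log2 differences -0.51 and -0.38, SE 0.05). At d5 2 of 6 were higher with FGF2 and 2 on knockdown, with medians of 0.09 and 0.10. At d2.5 the knockdown lowered 2 of the 6, among them Mrtfa (log2 difference -0.43, SE 0.06).

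Among 23 other ETS genes 12 were tested, with 4 higher and 6 lower with FGF2 at d2.5 (median -0.12), and 1 higher and 4 lower at d5 (median 0.00). Ets2 rose by 0.78 (SE 0.07) and Ets1 and Elf4 fell (log2 differences -0.63 and -0.44, both SE 0.05) at d2.5, beside the rise of Elk3, which also counts here. Under knockdown 1 was lower at d2.5 (median -0.01) and 5 were higher at d5 (median 0.12), where Ets1 rose by 0.48 (SE 0.05). The 0.82 of Elk3 was the largest d2.5 rise called among these 12 at a mean log2 CPM of at least 1, against 1.65 to 3.90 for the Pea3 genes.

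The list of other immediate early genes holds AP-1, Nr4a, Klf and similar genes that are switched on soon after stimulation. Of 39 tested at d2.5, 1 was higher and 20 lower under knockdown (median -0.17), and of 41 tested at d5, 27 were higher and 5 lower (median 0.37). With FGF2, 20 were higher and 12 lower at d2.5 (median 0.28) and 15 higher and 9 lower at d5 (median 0.01). Dusp2 and Fosl1, an AP-1 factor, rose by 3.74 (SE 0.25) and 2.46 (SE 0.07) with FGF2 at d2.5, while Gadd45b and Fos fell, with log2 differences of -1.73 (SE 0.08) and -1.28 (SE 0.22). Fos, an AP-1 subunit and a classical immediate early gene, thus fell on the day on which Egr1 rose. With FGF2 at d5, Dusp2 was lower (log2 difference -1.23, SE 0.36, adjusted p = 0.0087) and Gadd45b higher (log2 difference 0.69, SE 0.06, adjusted p = 2.5e-08), while Fosl1 (-0.24, SE 0.19, adjusted p = 0.31) and Fos (0.29, SE 0.14, adjusted p = 0.086) did not pass the test. At d5 the knockdown raised Dusp2 by 2.76 (SE 0.28), Fosl1 by 1.18 (SE 0.17) and Fos by 0.92 (SE 0.12), and lowered Gadd45b (log2 difference -0.39, SE 0.05). Dusp2 was near the lower end of detection, with means of 0.416 CPM in d2.5 Ctrl+vehicle and 0.473 CPM in d5 Ctrl+FGF2. Fos was also low at d2.5, with means of 3.19 CPM in Ctrl+vehicle and 1.33 CPM in Ctrl+FGF2.

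**Figure D4:**
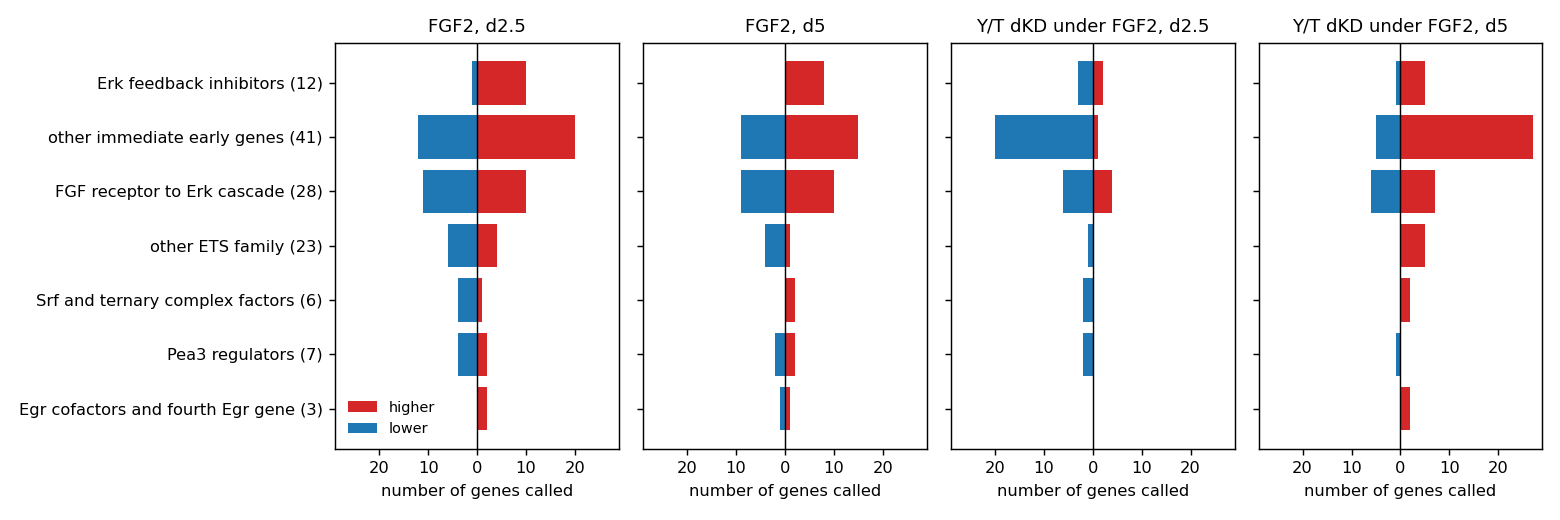
Number of genes called higher (red, to the right) or lower (blue, to the left) on 7 hand-written lists, with the list size in brackets, for FGF2 and for the knockdown under FGF2 on each day. The bar of other immediate early genes shows 20 lower and 1 higher on knockdown at d2.5 and 27 higher and 5 lower at d5, and the Erk feedback inhibitors show 10 higher with FGF2 at d2.5. Of all genes tested, 24.5% passed in either direction on knockdown at d2.5, 31.7% on knockdown at d5 and 67.6% with FGF2 at d2.5.

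For the differences between days, 10 of 11 Erk feedback inhibitors had a lower FGF2 effect at d5 and 1 a higher (median -1.39), and 7 had a higher knockdown effect and 1 a lower (median 0.45). Of the 41 other immediate early genes, 13 had a higher and 20 a lower FGF2 effect at d5 (median -0.17), and 27 had a higher and 3 a lower knockdown effect (median 0.53). Of all 14198 genes tested, 60.9% passed for the FGF2 effect and 20.9% for the knockdown effect, in either direction. Of the genes that passed, 52.2% and 55.4% were higher. For both lists the sign of the median was that of the called members among the 8 genes.

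The genes whose levels followed each member most closely over the 18 libraries were taken by Pearson's r of log2 CPM among 11731 genes. The 18 points fall into 6 groups and share normalization and day, so r mostly describes the group means, and no test is attached. Abhd2 and Eps8 were closest to Etv5 (r = 0.992 and 0.991), Dmp1 and Etv1 to Etv4 (0.976 and 0.975) and March4 and Gcnt4 to Etv1 (0.984 and 0.976). Gadd45a and Bhlhe41 were closest to Egr1 (0.994 and 0.993), Gdpd1 and Iglon5 to Egr2 (0.993 and 0.988) and Slc22a23 and Lamb1 to Egr3 (0.987 and 0.981). Mast4 and Col18a1 were closest to Ier2 (0.953 and 0.940) and Rhoc and Plxna1 to Ier3 (0.915 and 0.854). Only for Etv4 was another of the 8 genes among its closest 2, and no Egr gene had another Egr gene there.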

How the data were processed

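Bulk polyA RNA-seq of O9-1 cells was analysed in 18 libraries, 3 per group. The authors deposited raw counts per gene for each library, without normalization, in 3 columns of the layout that STAR's gene counting writes. The submitters' processing notes list FastQC, STAR, Picard, featureCounts and the build mm10, without versions. The reverse strand column was taken, since 96.0% to 96.6% of stranded counts are there. Entries naming no gene, multimapping reads among them, were dropped (27.0% to 34.4% per library). Of 55335 identifiers, 55154 matched GENCODE M21 by number, 567 of them with another version, Ier2 included, so its coordinates are those of the M21 entry.

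R 4.3.3 with edgeR 4.0.16 was used for the quasi-likelihood tests, with TMM factors and the filterByExpr filter, in a fit of 9 libraries for each day and a fit of 18 libraries for differences between days. Calls have a Benjamini-Hochberg adjusted p under 0.05 over all genes tested, and all adjusted p-values in the text are of this test unless DESeq2 is named. Dividing the size of the log2 fold change by the root of its F statistic gave the SE. Replicates differed by more than sampling noise in all 18 pairs (chi-square per degree of freedom 1.25 to 6.41).

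Named genes are the 8 members, the siRNA targets, from each list the 2 called genes with the largest rise and fall with FGF2 at d2.5 (mean log2 CPM 1 or more), and the 2 genes most like each member by Pearson's r. A gene that this rule names on the list of the FGF receptor to Erk cascade is not reported here. The members and lists were chosen with earlier results of these data known. The alternatives were DESeq2 1.42.0, upper-quartile or RLE scaling, leaving the filter out or asking for 10 counts in each library, other sets of libraries, a replicate block, unstranded counts, other thresholds and leaving out each library.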

Additional observations from a re-analysis of the deposited data

Results flagged for a closer look

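Each result here differed between the days in a test of the difference itself, and day and batch cannot be told apart. The FGF2 effect was lower at d5 than at d2.5 on the log2 scale by differences of -3.83 for Egr3, -3.29 for Etv5, -2.70 for Etv4, -1.18 for Etv1, -0.84 for Ier2, -0.63 for Ier3 and -0.51 for Egr1. The knockdown effect under FGF2 was more positive at d5 than at d2.5 by 1.57 for Ier3, 1.56 for Etv4, 0.97 for Ier2, 0.87 for Etv1, 0.67 for Egr1 and 0.59 for Etv5. For Ier2 and Ier3 the knockdown changes themselves had opposite signs on the 2 days, and both passed the test on both days.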

How the results depend on the processing

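The count of the 8 genes called was within 1.5 times the reported one under every alternative tried except a threshold that also asked for a 2-fold change. With that threshold edgeR called 4 genes for FGF2 at d2.5 (13.9% of all genes tested, in either direction), 0 for the knockdown at d2.5 (0.592%), 1 for FGF2 at d5 (5.80%), 1 for the knockdown at d5 (3.19%), 4 for the knockdown with FGF2 against vehicle at d5 (4.83%), 4 for the FGF2 effect between days (19.3%), 2 for the knockdown effect between days (2.32%), 3 for the days in Ctrl+vehicle (16.4%) and 5 for the days in Y/T dKD+FGF2 (29.9%). Without 1 library the counts were 7 for FGF2 at d2.5, 4 for the knockdown at d2.5, 6 for the knockdown with FGF2 against vehicle at d2.5, 4 to 6 for FGF2 at d5, 7 to 8 for the knockdown at d5, 8 for the knockdown with FGF2 against vehicle at d5, 6 to 7 for the FGF2 effect between days and 6 for the knockdown effect between days. Single values were followed at an adjusted p under 0.05 only, so calls lost at the other thresholds are not in the next numbers. Among these values, 677 kept direction and call under the remaining settings and 3 lost the call. Without 1 library 1106 kept both, 12 lost the call, 1 gained it and 6 changed sign. The changes of sign were all in differences near 0 that were not called: Ier3 for the knockdown with FGF2 against vehicle at d2.5, at -0.08 to 0.07 without 1 library (0.07 without Ctrl+vehicle replicate 2, 0.01 without Y/T dKD+FGF2 replicate 2 or 3), Egr2 for the FGF2 effect between days, at -0.78 to 0.04 (0.04 without d2.5 Ctrl+vehicle replicate 2), and Egr3 for the knockdown effect between days, at -0.00 to 0.17 (-0.00 without d5 Ctrl+FGF2 replicate 1 or d5 Y/T dKD+FGF2 replicate 2). The cause was not tested. Deviations of same-numbered libraries correlated little, at -0.072 to 0.115 over 18 pairs of libraries, and 1 pair was over 0.1. Libraries with unlike numbers were not compared, so this does not decide whether the replicate numbers pair the libraries. With a replicate block the counts were 7, 4 and 6 at d2.5 and 5, 8 and 8 at d5 in the order FGF2, knockdown, and knockdown with FGF2 against vehicle, 7 for the FGF2 effect between days and 6 for the knockdown effect, as without it. At d2.5 depth limits Egr2, with 1 to 5 counts per library.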
